A study of Homo sapiens with 12 samples.

Results

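OVCAR8 cells that received EC359 and trametinib together were compared with cells that received vehicle only. OVCAR8 is an established human ovarian carcinoma line. The comparison uses 6 of the 12 libraries of the series, chosen by their treatment labels: 3 libraries of the combination (150 nM EC359 with 100 nM trametinib) and 3 of the vehicle control, all collected after 7 h. The other 6 libraries, 3 with 150 nM EC359 alone and 3 with 100 nM trametinib alone, entered the same statistical fit and are used where the combination is set against a single agent. EC359 is described by its developers as a small molecule that blocks the receptor of leukemia inhibitory factor (LIFR), and trametinib is an allosteric inhibitor of the kinases MEK1 and MEK2. All libraries come from 1 cell line, and no source says that the 3 libraries of a condition came from separate cultures, so the p-values measure the spread between these libraries, which may be technical.

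MEK phosphorylates and activates ERK, which sits at the end of the RAS and RAF cascade. Active ERK switches on immediate early genes, its own inhibitors and the genes that carry a cell from G1 into S phase. LIF is a secreted cytokine related to interleukin-6, and it acts through LIFR and its partner gp130 to JAK kinases and STAT3. Cells under stress use other programs, which include the integrated stress response to amino acid or protein folding problems, the heat shock response to misfolded cytosolic proteins, the NRF2 response to oxidants and the metallothioneins that bind zinc. Gene lists for these programs are described below, and levels are given in CPM, the counts of a gene relative to all counts of its library, after TMM scaling, a scaling that sets the bulk of genes to the same level in each library.

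The control libraries held between 26781386 and 32467283 counted reads, and the combination libraries between 26400721 and 28304180. Of 26485 annotated genes, 14865 had enough counts to be tested. The keratins KRT7, KRT8 and KRT18 had mean levels of 976, 1930 and 1050 CPM in control, and the ovarian epithelial markers PAX8 and MSLN had 75.8 and 148 CPM, while MUC16 was at 0 reads in the controls and KRT19 and CDH1 were too low to be tested. The mesenchymal genes VIM and FN1 were also expressed, at 2290 and 1300 CPM. Markers of leukocytes other than CD68 (53.1 CPM), of endothelium and of liver were below 1 CPM, as were 3 of the 4 fibroblast markers, while COL1A1 was at 427 CPM.

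Compared to control, 1081 genes (7.27% of those tested) were at least 2-fold higher in the combination and 872 (5.87%) were at least 2-fold lower. Both counts are at an adjusted p-value below 0.05 by the quasi-likelihood test of edgeR, adjusted after Benjamini and Hochberg. These genes are called DEGs here. The words rose and fell are used for any gene with an adjusted p-value under 0.05 in this test, whatever the size of its change. With libraries as alike as these, small changes passed too, so that 5201 genes rose (35.0%) and 5152 fell (34.7%), while 4512 did not pass. Large changes were more often upward. A change of at least 4-fold was found upward in 240 genes and downward in 131, one of at least 8-fold in 58 and 14, and one of at least 16-fold in 18 and 3. In bulk RNA, a change in each cell and a change in the share of cells that use a gene cannot be told apart, nor can fewer cells of a kind and less RNA per cell. The split into higher and lower also depends on the scaling. TMM factors were 1.04 to 1.05 in control and 0.947 to 0.949 in the combination. When libraries were scaled by total counts only, the median of all genes shifted to a log2 fold change of -0.14 and 42.2% of DEGs were higher in the combination, against 55.4% under TMM. Genes that rose made up 36% of those past the p-value threshold with total counts only and 50.2% under TMM.

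The 2 directions differed in the level of the genes they involved. Of the 2376 genes with a mean above 100 CPM, 3.96% were DEGs higher in the combination and 0.631% were DEGs lower in it. Among the 3790 genes between 1 and 10 CPM, these shares were 8.39% and 10.6%. Abundant DEGs were thus mostly upward, as the plot of change against level shows.

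**Figure D1:**
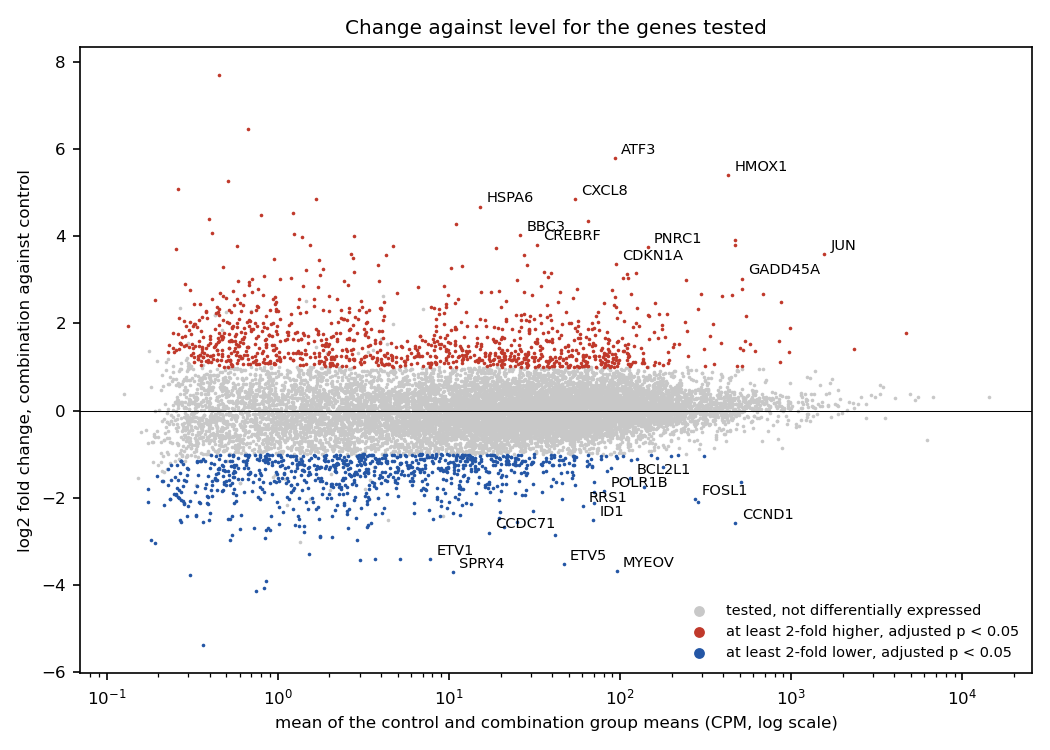
Change against level for the 14865 genes tested. Each point is a gene, with the mean of the control and combination group means in CPM on a log axis and its log2 fold change (combination against control) on the vertical axis; red points are the 1081 DEGs higher in the combination, blue points the 872 DEGs lower in it. Above 100 CPM, red points outnumber blue ones.

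The composition of the transcript pool moved accordingly. In TPM, the share of each gene among all transcripts after correction for gene length, JUN, an AP-1 transcription factor, went from 170 ± 1.43 (SD, n = 3) in control to 1900 ± 28.7 TPM (SD, n = 3) in the combination. The growth arrest gene GADD45A went from 194 ± 7.66 to 1450 ± 29.7 TPM (SD, n = 3 each). FLNC, which encodes the actin crosslinker filamin C, went from 551 ± 19.9 to 1740 ± 43.4 TPM, and RHOB, a small GTPase, from 186 ± 2.19 to 1090 ± 34.6 TPM. These genes all rose. The most TPM were lost by ACTB, the cytoplasmic beta-actin gene, which went from 10000 ± 254 to 5760 ± 173 TPM. TUBB4B, a beta-tubulin, went from 1710 ± 21.4 to 874 ± 6.09 TPM, and the kinase gene PLK2 from 643 ± 6.72 to 191 ± 4.36 TPM. All 3 fell.

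Feedback genes of ERK were mostly lower in the combination than in control, but mostly above their levels with trametinib alone. Of 10 genes for feedback inhibitors of the pathway, 9 fell, 4 of them by at least 2-fold, and none rose. The combination was higher than trametinib alone in 9 of the 10, SPRY4, DUSP4, DUSP5 and DUSP6 among them, and lower in none, where 35.2% of all genes tested were higher and 32.9% lower. The median log2 fold change was -0.84 against -0.005 over all genes tested. SPRY4, an inhibitor of RAS activation, had 19.2, 19.1 and 20.3 CPM in the control libraries and 1.72, 1.3 and 1.5 CPM in the combination libraries. Below, the control and combination libraries do not overlap in any gene whose 6 values are given, unless an overlap is stated. The log2 fold change of SPRY4 was -3.70 (standard error 0.093, edgeR adjusted p = 2.4e-39). DUSP6, a phosphatase that removes the activating phosphates of ERK, was at 3.75, 3.99 and 4.5 CPM in control and 1.52, 1.94 and 1.16 CPM in the combination. With trametinib alone DUSP6 was at 0.0953 ± 0.0836 CPM (SD, n = 3), where 3 counts correspond to 0.0936 to 0.114 CPM, so no fold is given against it, and the combination was higher (edgeR adjusted p = 4.3e-17). DUSP5, a nuclear ERK phosphatase, changed least against control among the 4 dual-specificity phosphatase genes of the list. It had 56.2, 58.4 and 59.2 CPM in control and 55, 53 and 55.5 CPM in the combination, a log2 fold change of only -0.09 that did not pass when either of control replicates 2 and 3 or combination replicate 2 was left out, but 186 ± 2.53 CPM with EC359 alone and 10.7 ± 0.194 CPM with trametinib alone (SD, n = 3 each). The combination was below EC359 by 1.77 on the log2 scale (log2 fold change -1.77) and above trametinib by 2.35, and both differences passed. SPRY1 did not pass, with a log2 fold change of 0.54 and overlapping libraries.

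Of the 16 tested ERK targets linked to growth and invasion, 10 fell, 8 of them by at least 2-fold, and 5 rose. The PEA3 family of ETS transcription factors fell in all 3 members. ETV5 was at 85, 82.9 and 90.3 CPM in control and at 7.19, 7.49 and 7.7 CPM in the combination (log2 fold change -3.53, standard error 0.056). ETV1 and ETV4 had log2 fold changes of -3.41 and -1.64. MYEOV, a gene beside CCND1 on chromosome 11, was at 176, 180 and 174 CPM in control and 12.5, 14.8 and 13.8 CPM in the combination, with a log2 fold change of -3.69. The chromatin protein gene HMGA2 and the receptor gene EPHA2 fell as well, with log2 fold changes of -2.85 and -1.76. Over the 16 genes, the combination was higher than trametinib alone in 13 and lower in 3. MYEOV and HMGA2 were among the lower ones, by log2 fold changes of -0.50 and -0.86, and ETV5 and EPHA2 among the higher ones, by 0.62 and 0.58. The cytokine genes IL11 and LIF were the list's clearest rises and are described below. PHLDA2 also passed as higher, but it had 8.14 CPM in 1 combination library and 0.373 and 0.15 CPM in the others, which overlap the controls at 0.0714 to 0.294 CPM, and without combination replicate 1 its log2 fold change was 0.37 and did not pass.

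The AP-1 family split by member. AP-1 is a dimer of FOS and JUN proteins, and the EGR proteins are zinc finger factors induced beside it. Of 21 immediate early genes, 16 rose, 13 of them by at least 2-fold, and 3 fell, with a median log2 fold change of 2.13. JUN had 235, 239 and 235 CPM in control and 2810, 2880 and 2920 CPM in the combination, a log2 fold change of 3.60 (standard error 0.024, edgeR adjusted p = 3.3e-68). JUND and JUNB rose with log2 fold changes of 2.67 and 2.13, so that all 3 JUN genes rose. FOSB was at 1.04, 1.05 and 1.12 CPM in control and at 19.7, 20.6 and 22 CPM in the combination. FOS was at 1.39, 2.63 and 1.74 CPM in control and at 19.2, 18.6 and 18 CPM in the combination. FOSL1, which encodes the FOS relative FRA1 and depends on ERK for its expression and stability, moved the other way. Its level was 444, 442 and 438 CPM in control and 105, 109 and 108 CPM in the combination (log2 fold change -2.04, standard error 0.026). The combination did not pass as different from trametinib alone in FOSL1 (log2 fold change 0.03, edgeR adjusted p = 0.29).

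EGR1 showed how close to control a gene could end under the 2 agents. It had 6.07, 6.66 and 7.98 CPM in control and 8.54, 7.53 and 9.54 CPM in the combination, and its libraries overlap between the groups. Its log2 fold change of 0.30 passed (edgeR adjusted p = 0.0053), but with total counts only it was 0.16, and without combination replicate 3 it was 0.21, and neither passed. With EC359 alone it stood at 207 ± 3.63 CPM and with trametinib alone at 0.329 ± 0.144 CPM (SD, n = 3 each). EGR3 was at 0 reads in all 3 control libraries, where a count of 0 allows up to 3 counts or 0.0883 to 0.107 CPM, and at 0.958, 0.745 and 1.01 CPM in the combination. EGR2 fell, with a log2 fold change of -0.87. The nuclear receptor genes NR4A1, NR4A2 and NR4A3 all rose, with log2 fold changes of 2.10, 4.04 and 3.58, and so did ZFP36 (2.46) and BTG2 (2.38), which act in messenger RNA decay and in growth arrest. SRF, the factor that binds the promoters of many of these genes, fell slightly, from 58, 59.7 and 59.4 CPM to 45.9, 45.4 and 47.6 CPM.

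**Figure D2:**
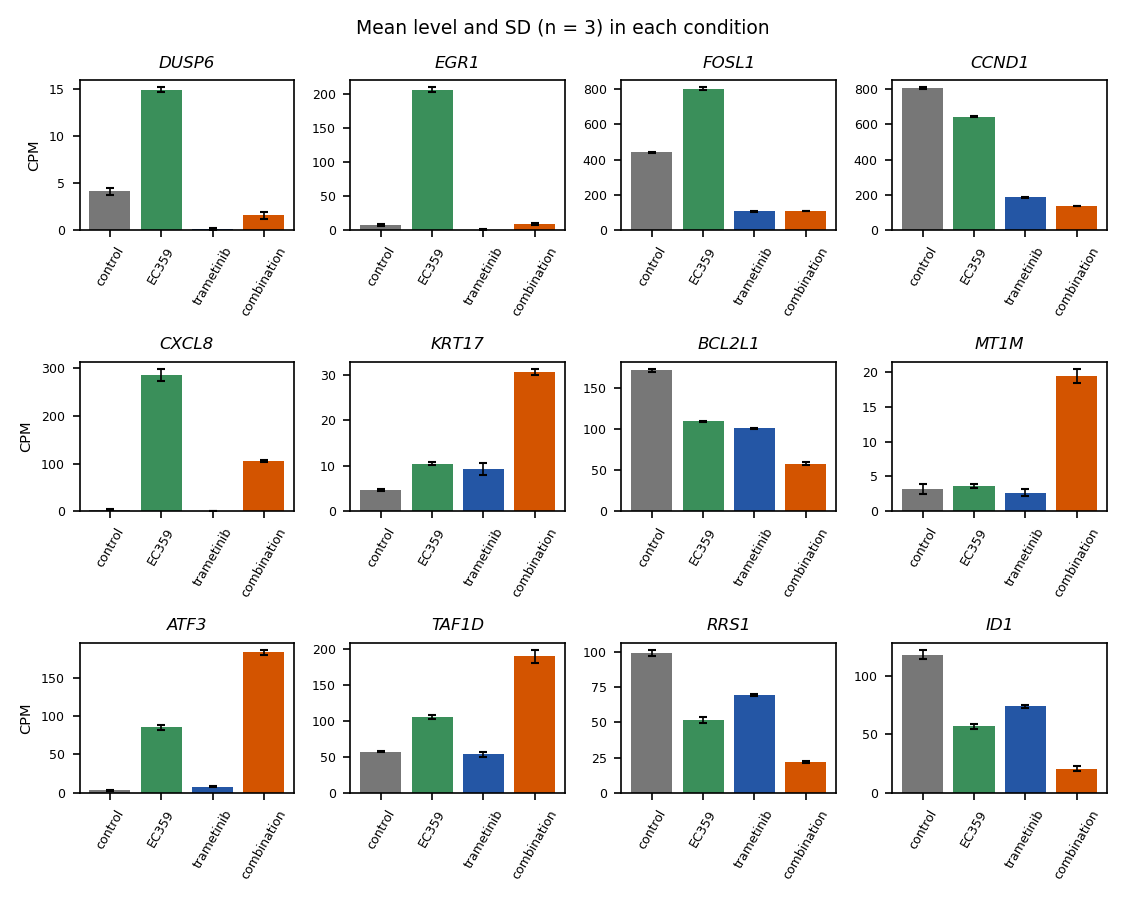
Mean level (CPM, linear axis from 0) of 12 genes in the 4 conditions; bars are means and whiskers SDs of 3 libraries. DUSP6 and EGR1 stand high with EC359 alone and near 0 with trametinib alone, with the combination near control or below it, whereas ATF3, MT1M and TAF1D are highest in the combination and BCL2L1, RRS1 and ID1 are lowest in it.

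The integrated stress response was higher in most of its members. In this response, kinases that sense different stresses phosphorylate the initiation factor eIF2, general translation drops and the factor ATF4 is made. Of 18 genes tested, 15 rose, 7 of them by at least 2-fold, and 3 fell. ATF3 had 3.46, 2.79 and 3.62 CPM in control and 183, 185 and 180 CPM in the combination, a log2 fold change of 5.79. The combination exceeded EC359 alone in ATF3 by a log2 fold change of 1.10 (edgeR adjusted p = 2.5e-33). Over the 18 genes, the combination was higher than EC359 alone in 6 and lower in 8, and the median log2 fold change against control was 0.71 in the combination and 1.11 with EC359 alone. The share of all genes tested that passed against EC359 alone, whatever the size of the change, is not given here. This count and those of the lists below against EC359 alone therefore only describe their members. By at least 2-fold, 251 of the 14865 genes tested were higher in the combination than with EC359 alone and 231 were lower. ATF4 itself went from 348, 338 and 337 CPM to 681, 705 and 696 CPM. PPP1R15A, the subunit that directs a phosphatase to eIF2 and so ends the response, was at 133, 130 and 127 CPM in control and 899, 916 and 887 CPM in the combination. SESN2, an inhibitor of mTORC1, was at 24.1, 25 and 24.8 CPM in control and 138, 134 and 137 CPM in the combination. Other classical members moved less: the log2 fold changes of DDIT3 (CHOP), TRIB3 and CHAC1 were 0.82, 0.50 and 0.30, and that of CHAC1 did not pass with total counts only (0.16) or without control replicate 1 (0.17). Of the 4 eIF2 kinases, EIF2AK3 (PERK, the kinase of the endoplasmic reticulum) rose with a log2 fold change of 1.78, and the 3 others fell with values of -0.29 to -0.42.

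Genes of amino acid transport and of synthesis mostly rose. Of 8 transporter genes tested, 7 rose, 5 of them by at least 2-fold, and the median was 1.55. SLC7A11, the light chain of the cystine importer, was at 33.4, 30.1 and 30.9 CPM in control and 201, 195 and 203 CPM in the combination. SLC38A2, a carrier of neutral amino acids, was at 124, 119 and 129 CPM in control and 779, 767 and 779 CPM in the combination. SLC3A2, the heavy chain shared by several of these carriers, rose with a log2 fold change of 1.56. SLC1A5, the glutamine carrier, fell, with a log2 fold change of -0.23. Among 12 genes of synthesis, 8 rose and 3 fell, with a median of 0.21, and CTH, which makes cysteine from cystathionine, was the only one to rise by at least 2-fold (log2 fold change 1.92). ASNS, the asparagine synthetase, was at 23.1, 21.4 and 21.1 CPM in control and 43.6, 41.7 and 42.3 CPM in the combination. The 12 genes for tRNA charging stayed within log2 fold changes of -0.34 to 0.43. In all, 23 of the 32 amino acid genes rose and 6 fell, or 19 and 8 with total counts only.

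Stress factors act on short motifs in the promoters of their targets, and 7 promoters of genes that rose in these lists are shown here with matches to those motifs. The sequences are from RefSeq (GRCh38.p14), are the 250 bases before the annotated start read 5′ to 3′ on the strand of the gene, and were searched on both strands. Shares are over windows of 300 bases, 250 before and 50 after the start. The C/EBP-ATF element TGATGNAA, the motif bound by ATF4 with C/EBP partners, was found in 37.5% of 24 promoters of the amino acid list, in 11.1% of 18 of the integrated stress response list and in 3.67% of all 27305 promoters. It was also found in 15.4% of 13 promoters of the BCL2 list and 12.5% of 16 of the LIF list. The heat shock element GAANNTTC was found in 39.1% of 23 promoters of the heat shock list and in 6.87% of all promoters. The antioxidant response element TGACNNNGC was found in 6 of 24 promoters of the NRF2 list and in 13.6% of all, but also in 57.1% of 7 promoters of the metallothionein list, 33.3% of 9 of the death receptor list, 30.8% of 13 of the BCL2 list and 29.2% of the amino acid list. It shares its first letters with the cyclic AMP response element TGACGTCA, found in none of the NRF2 list and in 1.98% of all promoters, and both cannot match at the same place. The metal response element TGCNCNC was found in all 7 promoters of the metallothionein and zinc list that the tables held, but it is short and occurs in 55.2% of all promoters. Capitals mark the match in ASNS (C/EBP-ATF element), in HSPA6 and CHORDC1 (heat shock element), in TXNRD1 and GCLM (antioxidant response element), and in MT1X and SLC30A1 (metal response element).
ASNS, chr7:97872409-97872658, minus strand: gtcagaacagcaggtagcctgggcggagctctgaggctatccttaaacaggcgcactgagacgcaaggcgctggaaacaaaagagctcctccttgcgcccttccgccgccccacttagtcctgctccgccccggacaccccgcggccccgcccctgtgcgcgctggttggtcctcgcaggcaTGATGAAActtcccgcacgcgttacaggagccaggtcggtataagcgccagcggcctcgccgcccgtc
HSPA6, chr1:161524290-161524539, plus strand: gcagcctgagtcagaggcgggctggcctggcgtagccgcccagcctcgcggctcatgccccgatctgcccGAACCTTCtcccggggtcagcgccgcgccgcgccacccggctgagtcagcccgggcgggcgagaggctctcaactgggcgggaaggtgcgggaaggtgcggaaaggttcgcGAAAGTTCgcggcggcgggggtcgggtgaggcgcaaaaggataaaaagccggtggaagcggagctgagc
CHORDC1, chr11:90223050-90223299, minus strand: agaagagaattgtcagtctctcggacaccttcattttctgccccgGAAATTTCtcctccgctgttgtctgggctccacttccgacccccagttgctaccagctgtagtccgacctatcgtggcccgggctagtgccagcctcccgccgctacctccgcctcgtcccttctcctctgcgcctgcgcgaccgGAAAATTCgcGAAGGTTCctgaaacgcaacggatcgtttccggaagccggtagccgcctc
TXNRD1, chr12:104215529-104215778, plus strand: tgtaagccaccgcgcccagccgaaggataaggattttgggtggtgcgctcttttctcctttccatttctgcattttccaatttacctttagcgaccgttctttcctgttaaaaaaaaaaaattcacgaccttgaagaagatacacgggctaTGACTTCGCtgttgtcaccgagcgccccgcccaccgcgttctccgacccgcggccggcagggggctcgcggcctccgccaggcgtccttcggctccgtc
GCLM, chr1:93909431-93909680, minus strand: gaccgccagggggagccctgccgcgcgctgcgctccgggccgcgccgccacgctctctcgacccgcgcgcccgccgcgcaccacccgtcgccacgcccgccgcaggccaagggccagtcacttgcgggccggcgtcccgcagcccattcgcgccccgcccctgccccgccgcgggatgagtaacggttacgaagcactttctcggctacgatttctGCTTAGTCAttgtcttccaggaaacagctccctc
MT1X, chr16:56682220-56682469, plus strand: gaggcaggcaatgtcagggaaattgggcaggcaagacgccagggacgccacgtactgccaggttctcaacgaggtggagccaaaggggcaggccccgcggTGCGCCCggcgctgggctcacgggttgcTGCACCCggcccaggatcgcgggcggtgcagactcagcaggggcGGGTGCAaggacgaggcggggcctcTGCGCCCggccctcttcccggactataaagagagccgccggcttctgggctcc
SLC30A1, chr1:211579162-211579411, minus strand: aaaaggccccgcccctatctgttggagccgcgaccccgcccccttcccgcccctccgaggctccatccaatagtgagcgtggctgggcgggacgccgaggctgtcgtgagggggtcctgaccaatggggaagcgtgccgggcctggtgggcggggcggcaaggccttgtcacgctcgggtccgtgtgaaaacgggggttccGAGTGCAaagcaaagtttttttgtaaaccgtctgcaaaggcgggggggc
The stretch of HSPA6 holds 2 matches, that of CHORDC1 holds 3 and that of MT1X holds 4, and each of the others holds 1. A match is a description of the letters and does not show that a factor was bound. The E-box CACGTG, a motif of MYC and its partners, was found in 12 of 40 promoters of the ribosome production list described below and in 7.43% of all, but also in 36.4% of 11 promoters of the KLF list.

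Cytosolic chaperones rose broadly. Of 24 heat shock genes tested, 22 rose, 8 of them by at least 2-fold, and none fell, with a median of 0.63. By total counts, 21 rose and 1 fell. HSPA6, an HSP70 gene that is nearly silent in unstressed cells, was at 1.18, 1.11 and 1.12 CPM in control and 29.9, 30.6 and 27.1 CPM in the combination (log2 fold change 4.68, standard error 0.10). HSPA1A, the main inducible HSP70 gene, was at 57, 65.5 and 52.6 CPM in control and 993, 808 and 845 CPM in the combination. It shares reads with its near-identical neighbour HSPA1B, which had a log2 fold change of 3.79 beside 3.92, so the split between them is uncertain. DNAJB1, the J protein that hands clients to HSP70, was at 267, 263 and 272 CPM in control and 793, 816 and 820 CPM in the combination. BAG3, a co-chaperone that leads clients to autophagy, and HSPH1, an HSP110, had log2 fold changes of 1.52 and 1.11. CHORDC1, whose promoter holds 3 matches above, had 289, 287 and 290 CPM in control and 497, 507 and 494 CPM in the combination. The constitutive chaperone genes moved less, with log2 fold changes of 0.39 in HSPA8 and 0.55 in HSP90AB1. For HSPA6 and HSPA1A, no difference between the combination and EC359 alone passed (log2 fold changes of 0.14 and 0.10). Over the 24 genes the combination was higher in 13 and lower in 4, counts that only describe this list.

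The unfolded protein response of the endoplasmic reticulum was mixed by comparison. Of 21 genes, 10 rose and 4 fell, and the median log2 fold change was 0.03. DNAJB9, a chaperone partner, and HERPUD1, a factor of protein degradation, rose with log2 fold changes of 1.98 and 1.34. HSPA5 (BiP), the main chaperone of this compartment, rose by 0.31 on the log2 scale, while PDIA4 and MANF fell, with log2 fold changes of -0.47 and -0.42. The sensor genes ERN1 and ATF6 did not pass, with values of -0.13 and 0.01. With total counts only, 7 genes of this list rose and 11 fell, and its median was -0.11.

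The antioxidant program of NRF2 rose in 24 of 29 genes tested, 7 of them by at least 2-fold, and 1 gene fell. HMOX1, the haem oxygenase, was at 19.1, 20.1 and 19.7 CPM in control and 811, 842 and 854 CPM in the combination. The log2 fold change of HMOX1 was 5.41 (standard error 0.034, edgeR adjusted p = 1.8e-69). GCLM, a subunit of the enzyme that starts glutathione synthesis, was at 160, 153 and 157 CPM in control and 521, 520 and 510 CPM in the combination. TXNRD1, the thioredoxin reductase, was at 426, 425 and 420 CPM in control and 1270, 1290 and 1280 CPM in the combination. The regulators rose too: MAFG, a small partner of NRF2, had a log2 fold change of 2.36, BACH1, a repressor of HMOX1, 1.26, and NFE2L2, which encodes NRF2, 0.73. SRXN1, the sulfiredoxin, fell with a log2 fold change of -0.22, and the aldo-keto reductase genes AKR1C1, AKR1C2 and AKR1C3 did not pass.

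Iron and ferroptosis genes overlap this list. In ferroptosis, cells die as iron drives the peroxidation of their lipids, which GPX4 opposes with glutathione. Of 19 genes, 12 rose and 5 fell. The cystine importer SLC7A11 and HMOX1 had the largest rises and count in both lists. The ferritin genes FTH1 and FTL rose with log2 fold changes of 0.91 and 0.77, and PTGS2, often used as a marker of ferroptosis, went from 0.143, 0.127 and 0.118 CPM to 1.2, 0.596 and 0.676 CPM. PTGS2 had at most 4 counts in a control library, so its control level is near the floor. Its mean with EC359 alone was 1.27 CPM, and the combination did not pass as different from that. SAT1, a polyamine acetylase, was at 49.9, 48.3 and 50 CPM in control and 153, 157 and 158 CPM in the combination. Among genes that defend against lipid peroxidation, GPX4 was at 114, 114 and 113 CPM in control and 124, 132 and 130 CPM in the combination, a log2 fold change of 0.18, or 0.04 and not past the threshold with total counts only. AIFM2 (FSP1) rose by 0.82 on the log2 scale, and DHODH, a mitochondrial enzyme, fell with a log2 fold change of -0.84. ACSL4, which loads membranes with oxidisable lipids, did not pass (log2 fold change 0.00), and IREB2, an iron regulatory protein, fell with -0.73.

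Metallothioneins were higher in the combination than in control, and several were also higher than with either agent alone. They bind zinc and copper and are induced by the zinc sensor MTF1. All 9 genes of the list that were tested rose, 6 of them by at least 2-fold, and the median was 1.62, while 4 of its 13 genes were too low to be tested. Scaled by total counts, 8 rose. The libraries of MT1A overlap, at 0.285 to 0.714 CPM in control and 0.633 to 1.13 CPM in the combination, and its call was lost with total counts only, with DESeq2 and without control replicate 2, control replicate 3 or combination replicate 3. MT1X was at 31, 34.9 and 33.8 CPM in control and 105, 111 and 114 CPM in the combination. MT1E was at 115, 122 and 119 CPM in control and 268, 264 and 263 CPM in the combination. MT1M was at 2.78, 4.09 and 2.91 CPM in control and 19, 18.6 and 20.6 CPM in the combination. In these 3 genes, the combination was higher than EC359 alone by log2 fold changes of 1.27, 1.01 and 2.43 and higher than trametinib alone by 2.07, 1.49 and 2.85. SLC30A1, the zinc exporter of the plasma membrane, was at 8.25, 8.31 and 8.54 CPM in control and 57.8, 60.4 and 62.6 CPM in the combination, and exceeded EC359 alone by a log2 fold change of 0.95. All of these differences passed. Over the 9 genes, the combination was higher than EC359 alone in 6 and lower in 1, counts that only describe this list. MT1H had at most 4 counts in a control library, so no fold is given against control, and it did not pass against EC359 alone (log2 fold change 0.44). MTF1 had a log2 fold change of 0.40 against control and was lower than with EC359 alone. Metallothionein genes are near-identical copies on chromosome 16, and reads that fit several of them were divided by the authors.

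**Figure D3:**
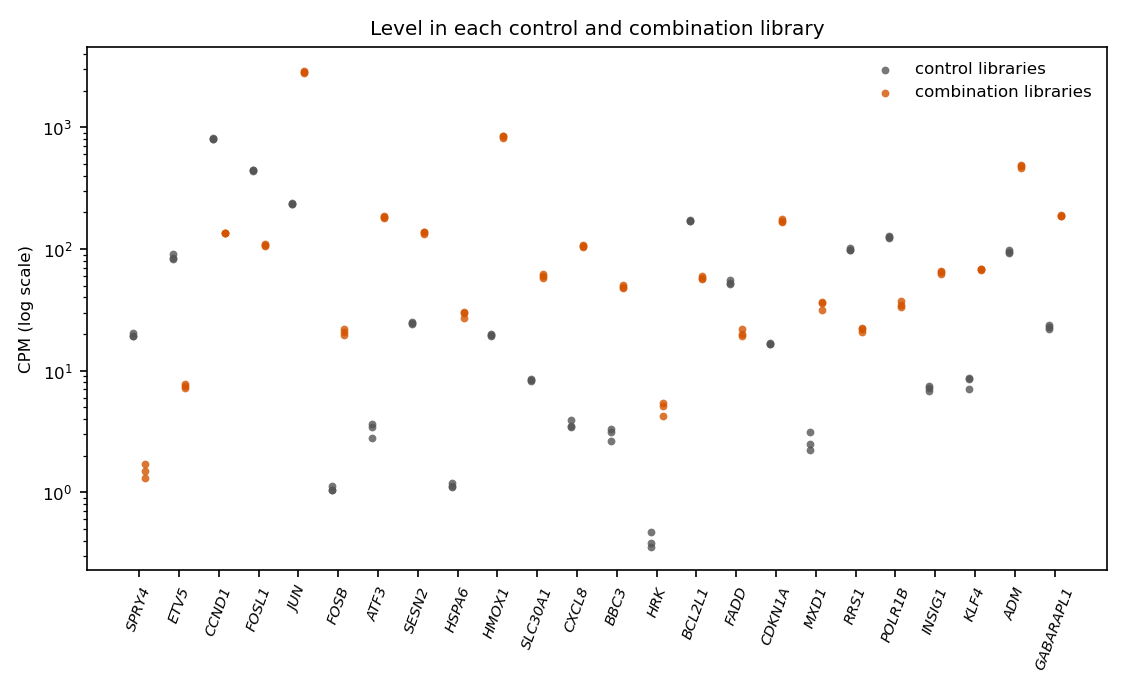
Level (CPM, log axis) of 24 genes in each of the 3 control libraries (grey) and 3 combination libraries (orange). In each of these genes the 2 sets of libraries do not overlap; the libraries of a set lie close together, with JUN at 2810 to 2920 CPM and SPRY4 at 1.3 to 1.72 CPM in the combination.

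The chemokine genes CXCL1, CXCL2, CXCL3 and CXCL8 rose against control but stayed below EC359 alone. Of 13 chemokine and cytokine genes tested, 8 rose, all by at least 2-fold, and 2 fell, while 6 of 19 were too low to be tested. CXCL8 (interleukin-8), which attracts neutrophils, was at 3.43, 3.9 and 3.5 CPM in control and 103, 107 and 106 CPM in the combination. CXCL2, of the same family, was at 6.03, 6.31 and 5.86 CPM in control and 118, 126 and 127 CPM in the combination. CXCL1 and CXCL3 rose with log2 fold changes of 2.07 and 3.77. In these 4 genes the combination was lower than EC359 alone, by log2 fold changes of -1.44, -1.25, -2.28 and -1.38, and all 4 differences passed. Over the 13 genes, the combination was lower than EC359 alone in 12, a count that only describes this list. IL1B fell, from 4.64, 3.3 and 4.06 CPM to 1.04, 0.745 and 0.864 CPM, and CXCL5 fell with a log2 fold change of -0.32.

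Genes of NF-kappaB, the factor that drives many chemokine genes, rose in 11 of 14 cases. All 5 subunit genes rose, with REL at a log2 fold change of 1.86. The feedback inhibitors TNFAIP3 (A20) and NFKBIA (I kappa B alpha) were among the largest rises. TNFAIP3 was at 13.7, 14.8 and 14.1 CPM in control and 97.9, 98.5 and 96.9 CPM in the combination, and NFKBIA was at 93.8, 97.1 and 92.5 CPM in control and 380, 386 and 395 CPM in the combination. NFKBIZ, a further inhibitor protein of the family, rose with a log2 fold change of 2.72. In all, 6 of 9 feedback and target genes rose. BIRC3 and NFKBIE fell, with log2 fold changes of -0.26 each, and ICAM1 did not pass, with a value of 0.00.

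LIF signalling, the pathway EC359 is directed at, had 17 of 20 genes that rose and none that fell, or 14 and 1 with total counts only. The ligand gene LIF was at 21.2, 22.2 and 21.7 CPM in control and 44.2, 43.7 and 45 CPM in the combination. IL6 was at 11.6, 13.2 and 13.1 CPM in control and 46.5, 44.3 and 46.9 CPM in the combination, and IL11 was at 11.7, 10.6 and 10.2 CPM in control and 45.5, 48.9 and 51.3 CPM in the combination. Receptors moved less than ligands. LIFR was at 16.8, 13.9 and 15.6 CPM in control and 20.8, 19.2 and 20.7 CPM in the combination (log2 fold change 0.39), and IL6ST, which encodes gp130, had a log2 fold change of 0.32. LIFR did not pass as different from EC359 alone (log2 fold change 0.01), whereas LIF and IL11 were lower in the combination than with EC359 alone, by log2 fold changes of -0.74 and -0.62 that passed. Over the 20 genes, the combination was higher than EC359 alone in 5 and lower in 10. STAT3 had a log2 fold change of 0.13. With total counts only that of STAT3 was -0.01 and did not pass. Of the targets and feedback genes of the pathway, SOCS3 was at 19.1, 20.2 and 21.1 CPM in control and 50.6, 48.5 and 48.4 CPM in the combination, and the kinase gene PIM1 was at 14.4, 14.2 and 16.5 CPM in control and 89.5, 87.9 and 93.6 CPM in the combination. SOCS1 and BCL6 rose as well, with log2 fold changes of 1.6 and 1.93. Messenger RNA levels do not report the phosphorylation of STAT3.

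The BCL2 family decides whether mitochondria release the factors that start apoptosis. Its BH3-only members promote release and members such as BCL2L1 (BCL-xL) prevent it. Of 8 BH3-only genes, 6 rose, 5 of them by at least 2-fold, and their median was 1.24. BBC3 (PUMA) was at 3.32, 3.14 and 2.62 CPM in control and 47.7, 50.8 and 48.3 CPM in the combination, a log2 fold change of 4.02 (standard error 0.081, edgeR adjusted p = 3.8e-42). HRK was at 0.357, 0.38 and 0.471 CPM in control and 4.23, 5.37 and 5.15 CPM in the combination. BCL2L11 (BIM), whose protein ERK marks for degradation, was at 5.36, 5.8 and 5 CPM in control and 13.7, 13 and 15.9 CPM in the combination. It was higher than with EC359 alone and than with trametinib alone, by log2 fold changes of 0.78 and 0.74, and both differences passed. PMAIP1 (NOXA) rose with a log2 fold change of 1.08. Of 5 anti-apoptotic genes, 3 fell, 2 of them by at least 2-fold, and 2 rose. BCL2A1 fell with a log2 fold change of -1.61, from a control mean of only 1.53 CPM. BCL2L1 was at 171, 169 and 173 CPM in control and 56.4, 59.5 and 57.7 CPM in the combination. BCL2L1 had a log2 fold change of -1.56 and lay below EC359 alone and trametinib alone, by log2 fold changes of -0.92 and -0.80 that both passed. MCL1 rose, from 257, 254 and 256 CPM to 378, 386 and 391 CPM. Over the 16 genes of the family, 8 rose and 7 fell, with a median log2 fold change of 0.10, and the combination was higher than EC359 alone in 4 and lower in 8. The effector genes BAX, BAK1 and BOK fell slightly, with log2 fold changes of -0.16, -0.45 and -0.25.

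Of 15 genes of the death receptor pathway, 6 rose and 6 fell, shares near those over all genes tested, and the median log2 fold change was -0.03. Among the 6 receptors and ligands 4 rose and 2 fell, and among the 9 adaptors, caspases and inhibitors 2 rose and 4 fell. FADD, the adaptor that joins receptors to caspase-8, was at 52, 55.8 and 52.6 CPM in control and 19.4, 21.8 and 20 CPM in the combination. CASP8 was at 19, 19.8 and 18.8 CPM in control and 8.66, 8.05 and 9.69 CPM in the combination, and TNFRSF1A, a receptor of tumour necrosis factor, at 200, 208 and 200 CPM in control and 95.2, 101 and 101 CPM in the combination. These 3 genes fell by at least 2-fold. The decoy receptor gene TNFRSF10D rose with a log2 fold change of 1.93, and TNFRSF10B (DR5) with 0.63.

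Of 23 G1 control genes tested, 16 rose and 5 fell, with a median log2 fold change of 0.43. Cyclin D1 with CDK4 or CDK6 inactivates RB, and RB restrains the E2F factors. CCND1 was at 812, 809 and 803 CPM in control and 135, 135 and 136 CPM in the combination, a log2 fold change of -2.58 (standard error 0.024, edgeR adjusted p = 2.1e-60). It was lower than with trametinib alone by a log2 fold change of -0.44, which passed. CDKN1A (p21), an inhibitor of cyclin-dependent kinases, was at 16.5, 16.5 and 17 CPM in control and 169, 168 and 177 CPM in the combination. Of 7 inhibitor genes of these kinases, 6 rose, among them CDKN2B (p15, log2 fold change 1.23), and CDKN2C (p18) fell, from 43.2, 42 and 40.6 CPM to 15.7, 14.8 and 16 CPM. RB1 was at 6.57, 6.69 and 6.86 CPM in control and 26.2, 26.6 and 25.1 CPM in the combination. E2F1 rose as well, with a log2 fold change of 1.07. CCND3 did not pass (0.02).

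Genes of DNA replication and of mitosis differed. Of 22 replication genes, 12 rose and 6 fell, none by 2-fold, and their median was 0.08. With total counts only, 8 rose and 12 fell. The licensing factor CDT1 and the polymerase gene POLE rose by 0.68 on the log2 scale, and GINS1 and MCM10 fell with log2 fold changes of -0.68 and -0.61. Of 19 mitotic genes, 13 fell and 3 rose, none by 2-fold, with a median of -0.49. CCNB1, cyclin B1, was at 452, 456 and 458 CPM in control and 254, 247 and 245 CPM in the combination. CDC20, which activates the anaphase-promoting complex, and the kinase gene AURKA had log2 fold changes of -0.88 and -0.87. The 3 that rose, CDK1, CENPE and CENPF, had log2 fold changes of 0.08, 0.09 and 0.18. The call of CDK1 was lost without control replicate 3, and that of CENPE, whose libraries overlap, without control replicate 1 or 2 or combination replicate 1. No mitotic gene rose with total counts only.

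MYC is a driver of ribosome production, and its partner MAX is shared with the MXD proteins, which act against MYC. MYC itself was at 142, 140 and 147 CPM in control and 186, 191 and 199 CPM in the combination, a log2 fold change of 0.43. MXD1 was at 2.5, 2.22 and 3.12 CPM in control and 36.6, 36.2 and 31.6 CPM in the combination, a log2 fold change of 3.73 (standard error 0.096). It exceeded EC359 alone by a log2 fold change of 0.73, which passed, but over the 12 tested genes of the MYC network the combination was higher than EC359 alone in 2 and lower in 6. MNT, a related repressor, rose with a log2 fold change of 1.61. MLX and MYCL fell, with log2 fold changes of -0.74 and -1.33, and TXNIP, a glucose-responsive target of MondoA and MLX, fell with -2.0.

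Genes that build ribosomes fell in 34 of 47 cases, 5 of them by at least 2-fold, and 5 rose, with a median log2 fold change of -0.39. POLR1B, a large subunit of RNA polymerase I, was at 124, 126 and 128 CPM in control and 37, 33.5 and 34.9 CPM in the combination. RRS1, an assembly factor of the large subunit, was at 98.5, 102 and 97.7 CPM in control and 22.3, 22.1 and 20.8 CPM in the combination. Both were lower than with either agent alone. For POLR1B the log2 fold change was -0.93 against EC359 and -1.53 against trametinib, for RRS1 it was -1.25 and -1.68, and all 4 differences passed. Large-subunit assembly genes fell in 14 of 16 cases, among them PPAN and NOP16 with log2 fold changes of -1.16 and -1.07. Over the 47 genes, the combination was lower than EC359 alone in 35 and higher in 6. The share over all genes is not given, so these counts only describe the list. TAF1D, a subunit of the initiation factor of RNA polymerase I, was the exception with a large rise. It was at 57.5, 56.6 and 58 CPM in control and 187, 200 and 184 CPM in the combination. The box C/D proteins NOP58 and FBL rose by 0.12 and 0.16 on the log2 scale, but stood at -0.02 and 0.02 with total counts only.

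Mitochondrial ribosomal protein genes fell in 59 of 77 cases and rose in 4, with a median log2 fold change of -0.34. Their changes were small: only MRPS18C passed 2-fold, with a log2 fold change of -1.05, followed by MRPL16 (-0.94) and MRPL46 (-0.92). Cytosolic ribosomal protein genes moved the other way under TMM scaling, as 69 of 82 rose and 4 fell, with a median of 0.17 and none past 2-fold. That direction depended on the scaling, since with total counts only 30 rose and 16 fell and the median was 0.03. The largest fall that passed was in RPL7L1, a paralog with a log2 fold change of -0.78, while RPS9 did not pass. Control replicate 1 had 43.8 CPM of RPS9 against 7.61 and 8.03 CPM in the other control libraries and 9.84 to 10 CPM in the combination, and without that library its log2 fold change turned from -0.98 to 0.35 and passed. The 12 long noncoding host genes of small nucleolar RNAs, which share a type of promoter with ribosomal protein genes, all rose, and 11 did so with total counts only. SNHG12 was at 18.9, 19.4 and 19 CPM in control and 56.9, 57.5 and 58 CPM in the combination, and ZFAS1 and GAS5 had log2 fold changes of 0.82 and 0.62.

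**Figure D4:**
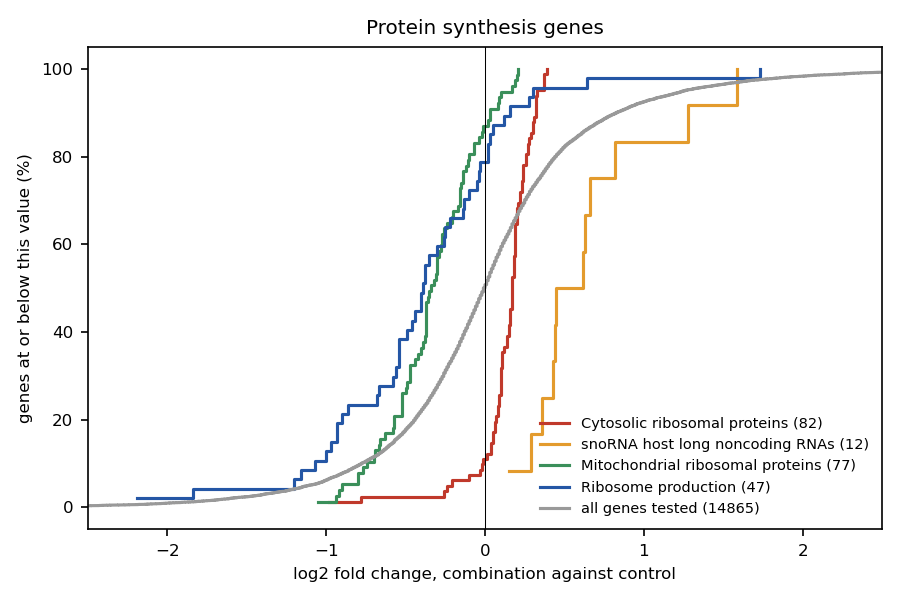
Cumulative share of genes (%) by log2 fold change, combination against control, for 4 lists of protein synthesis genes and all genes tested, within -2.5 to 2.5. The curves of ribosome production (median -0.39) and of mitochondrial ribosomal proteins (-0.34) lie to the left of the curve of all genes, and those of cytosolic ribosomal proteins (0.17) and snoRNA hosts (0.53) to the right.

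Several other families rose. Of 13 KLF genes, zinc finger factors that act in quiescence and differentiation, 11 rose, 8 of them by at least 2-fold, and none fell. KLF4 was at 8.57, 7.07 and 8.65 CPM in control and 67, 68.3 and 68.3 CPM in the combination, and was higher than with EC359 alone by a log2 fold change of 0.82, which passed. Over the 13 genes, the combination was higher than EC359 alone in 2 and lower in 4. KLF2 was at 55.5, 55.8 and 52.1 CPM in control and 411, 423 and 462 CPM in the combination. KLF6, known as a tumour suppressor, was at 261, 257 and 268 CPM in control and 1510, 1450 and 1480 CPM in the combination. Hypoxia-responsive genes rose in 14 of 16 cases, 9 of them by at least 2-fold, and all 10 tested targets rose. Scaled by total counts, 13 of the 16 rose. ADM, the hormone adrenomedullin, was at 93.6, 98.2 and 91.9 CPM in control and 467, 481 and 488 CPM in the combination, and VEGFA, the angiogenic growth factor, at 9.93, 9.45 and 11.2 CPM in control and 43.5, 40.7 and 44 CPM in the combination. NDRG1 and PDK1 had log2 fold changes of 2.05 and 1.69.

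Genes of cholesterol and fatty acid synthesis rose in 21 of 26 cases, 6 of them by at least 2-fold, and 1 fell. All 5 regulators and 12 of 14 genes of cholesterol synthesis and uptake rose and none fell, while among 7 fatty acid enzymes 4 rose and 1 fell. SREBP2 switches on cholesterol synthesis and uptake when sterols are low. INSIG1, a target and a brake of SREBP2, was at 7.18, 7.42 and 6.83 CPM in control and 62.8, 64.9 and 66 CPM in the combination. HMGCS1, an early enzyme of the pathway, was at 29.1, 29.5 and 28.4 CPM in control and 119, 119 and 118 CPM in the combination. ABCA1, a cholesterol exporter that is counted with the regulators here, had a log2 fold change of 1.25. FDPS and ACLY did not pass, and ELOVL6, a fatty acid elongase, fell with -0.67.

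Enzymes that write or erase histone lysine methylation rose in 20 of 27 cases and fell in 5. KDM6B, a demethylase of the histone mark laid by Polycomb, was at 11.3, 12.4 and 11.6 CPM in control and 77.6, 74.8 and 79.4 CPM in the combination. Its relative KDM6A and the methyltransferase genes KMT2A and KMT2C had log2 fold changes of 1.25, 1.12 and 1.30, while SUV39H2 and EHMT1, enzymes of repressive methylation, fell with -0.59 and -0.42. Autophagy genes rose in 10 of 17 cases and fell in 4. GABARAPL1, a member of the ATG8 family, was at 23.5, 22.8 and 21.9 CPM in control and 186, 189 and 185 CPM in the combination, and the receptor gene SQSTM1 (p62) at 416, 424 and 407 CPM in control and 1500, 1560 and 1560 CPM in the combination. ULK1, the kinase that starts autophagy, rose with a log2 fold change of 2.0.

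Receptor tyrosine kinases and their ligands rose in 9 of 15 cases and fell in 4. The EGFR ligand gene HBEGF was at 32.4, 28.8 and 30.6 CPM in control and 158, 156 and 159 CPM in the combination, and AREG at 0.286, 0.729 and 0.589 CPM in control and 4.35, 4.36 and 4.21 CPM in the combination. The receptor genes INSR and IGF1R had log2 fold changes of 1.26 and 1.15, and EGFR and ERBB2 fell slightly, with -0.19 and -0.22. Of 13 genes of actin and its SRF and YAP factors, 6 rose and 7 fell. ACTB was at 7480, 7630 and 7780 CPM in control and 4830, 4630 and 4810 CPM in the combination, whereas CNN1, the smooth muscle calponin, was at 8.25, 8.69 and 7.74 CPM in control and 30.5, 29.3 and 31.5 CPM in the combination. ANKRD1 was higher than control by a log2 fold change of 1.44 and higher than trametinib alone by 2.58.

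**Figure D5:**
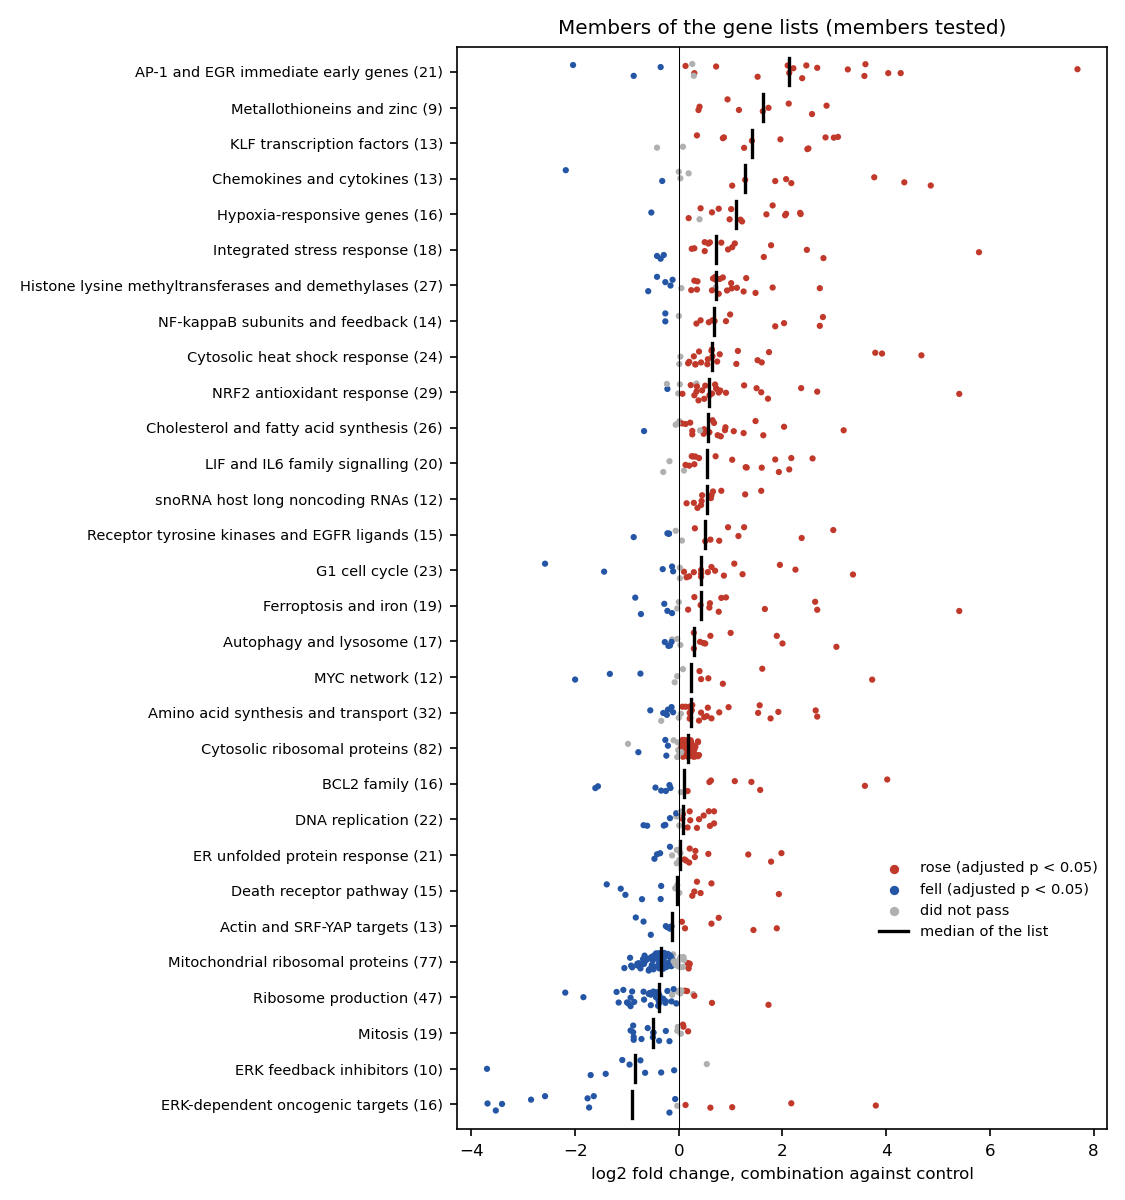
Log2 fold change (combination against control) of each tested member of 30 gene lists, ordered by the median of the list (black bar); red points rose, blue points fell and grey points did not pass at an adjusted p-value of 0.05. Medians run from -0.91 in ERK-dependent oncogenic targets to 2.13 in AP-1 and EGR immediate early genes, and most lists hold points of both colours. The point farthest to the right is EGR3, whose fitted value rests on controls at 0 reads.

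Outside the lists, the 15 largest rises and the 15 largest falls were taken among DEGs that reached 10 CPM in the higher group and whose libraries did not overlap. CREBRF, a regulator of CREB3 factors, was at 3.89, 4.28 and 4.77 CPM in control and 60.1, 63.3 and 58.8 CPM in the combination. PNRC1, a nuclear receptor coactivator, was at 20.5, 19.1 and 20 CPM in control and 263, 268 and 275 CPM in the combination. KLHL24, a substrate adaptor of a ubiquitin ligase, was at 4, 4.57 and 4.27 CPM in control and 51.3, 49.6 and 51.4 CPM in the combination. Of the 15 rises, all were higher in the combination than with trametinib alone, and 11 were also higher than with EC359 alone, as were CREBRF, PNRC1 and KLHL24 by log2 fold changes of 0.73, 0.37 and 0.49. TRIB1, SLC2A3 and ZC3H12A were lower than with EC359 alone, by log2 fold changes of -0.35, -0.25 and -0.20 that passed, and YPEL2 did not pass. GEM and ARID5B followed with log2 fold changes of 3.33 and 3.31 against control, and MAFK, a further small partner of NRF2, had 3.16. TRIB1, CSRNP1 and GADD45A had 3.14, 3.04 and 3.03 against control.

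KCNQ1OT1 and KRT17 were well above their levels with either agent alone. KCNQ1OT1, the long noncoding RNA of an imprinted region on chromosome 11, was at 4.11, 5.99 and 5.18 CPM in control and 34.8, 34.1 and 34.1 CPM in the combination. Its mean was 8.33 CPM with EC359 alone and 7.46 CPM with trametinib alone. The keratin gene KRT17 was at 4.36, 4.79 and 4.77 CPM in control, at 29.9, 31 and 31.1 CPM in the combination and at means of 10.5 and 9.29 CPM with EC359 and with trametinib. Against the single agents, the combination was higher by log2 fold changes of 2.04 and 2.20 in KCNQ1OT1 and of 1.55 and 1.72 in KRT17, and all 4 differences passed.

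Of the 15 falls outside the lists, 14 were lower in the combination than with either agent alone, as were 53.6% of all 872 lower DEGs and 2225 of all 14865 genes tested. Of the 1081 higher DEGs, 61.5% were higher than with either agent alone, against 2528 of all 14865 genes tested. The DEGs were chosen for their values in the combination, so these shares are a description. CCDC71 was at 29.8, 31.6 and 28.4 CPM in control and 3.99, 4.21 and 4.7 CPM in the combination, and INTS5, a subunit of the Integrator complex, at 39.9, 44.4 and 42.9 CPM in control and 7.54, 6.41 and 7.55 CPM in the combination. With trametinib alone these genes were at 30.1 ± 1.82 and 42.4 ± 1.65 CPM (SD, n = 3 each), and with EC359 alone at 8.9 ± 0.0619 and 13.9 ± 0.984 CPM. CPT2, the carnitine palmitoyltransferase of the inner mitochondrial membrane, MARS2, the mitochondrial methionyl-tRNA synthetase, and ALDH1B1, a mitochondrial aldehyde dehydrogenase, had log2 fold changes of -2.5, -2.35 and -2.3. PRMT6, an arginine methyltransferase, S1PR5, a sphingosine-1-phosphate receptor, and HPS6, a protein of lysosome-related organelles, had -2.46, -2.41 and -2.32. ID1, an inhibitor of differentiation factors induced by BMP signals, was at 115, 123 and 117 CPM in control and 18.7, 20.5 and 22.5 CPM in the combination. The exception was NAV3, which was at 15.6, 15.5 and 16.7 CPM in control and 3.15, 3.87 and 3.12 CPM in the combination, and which trametinib alone took lower still, to a mean of 1.97 CPM.

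A small set of DEGs went between background and measurable levels. Those named here were chosen after their values were seen. In 10 genes no control library held more than 3 counts, among them EGR3, the HSP70-like HSPA7 and the small nucleolar RNA SNORA29. In 13 genes no combination library did, among them HRCT1 and RIMBP3. HSPA7 was at 0.0357, 0.0317 and 0 CPM in control and 0.958, 1.27 and 0.752 CPM in the combination, and RIMBP3 at 0.964, 1.36 and 1.94 CPM in control and 0.0798, 0.112 and 0.0376 CPM in the combination. HSPA7 resembles HSPA6 in sequence, but the counts of HSPA6 were whole in every control and combination library, so no divided reads are seen there.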

How the data were processed

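Per the study's methods and the labels, total RNA of OVCAR8 cells was sequenced with reads of 100 bp, and the submitters' processing notes name bcl2fastq, HISAT2 and featureCounts 1.5.0-p1. The deposited values are estimated counts per gene, which the authors made by dividing a read that fits several places between them, so that many are not whole. Near-identical genes (HSPA1A and HSPA1B, the metallothioneins) therefore share reads, and gene lengths that include copies on alternate contigs understate the TPM of such genes. The strand setting of the counting is not given in the sources used here. The build is that of the exon coordinates in the tables, which is not named there, and RefSeq promoters of GRCh38.p14 were matched by symbol.

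Counts were rounded, genes were filtered with filterByExpr (minimum count 10, minimum total 15) and all 12 libraries were fitted by condition with edgeR 4.0.16 (robust quasi-likelihood test, TMM scaling, R 4.3.3), with Benjamini-Hochberg adjustment over the 14865 genes tested. The procedure was first tested on simulated data. Alternatives were DESeq2 1.42.0, other scalings and filters, the 6 libraries alone, a replicate block and leaving out each library. The members and gene lists were chosen with earlier results of these data known. From each list, the 3 largest rises and falls and the genes that define its role were eligible to be named, as were the 15 largest rises and falls outside the lists, and some further members and the genes with the largest shifts in TPM were named after their values were seen. Results for some genes are not reported here.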

Additional observations from a re-analysis of the deposited data

How the results depend on the processing

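The counts of DEGs stayed within 1.5 times the 1953 found here under every alternative run, from 1472 with at least 10 counts in every library to 2779 when the threshold was replaced by a test against a 1.5-fold change. Leaving out 1 library at a time gave 1970 to 2006 DEGs, 1079 to 1111 higher and 875 to 909 lower. DESeq2 called 1919 DEGs and the 6 libraries alone 1874. The replicate numbers did not pair the samples (correlations of same-numbered deviations of 0.007, -0.078 and -0.007), and with a replicate block 1943 DEGs were called, 1074 higher and 869 lower. With total counts only, 872 DEGs were higher and 1194 lower, and the log2 fold change turned, past the threshold in at least 1 of the 2 scalings, in 9 of the genes named: ACSL4 (-0.14), ATF6 (-0.13), CCND3 (-0.11), CDK1 (-0.06), CENPE (-0.05), FDPS (-0.13), KRT7 (-0.10), NOP58 (-0.02) and STAT3 (-0.01). AKR1C1 turned too, from 0.02 to -0.11, and passed in neither. The other reversal was in RPS9, which ran from -1.37 to 0.35 when 1 library was left out, and the cause was not tested. Total counts moved the median by -0.14, and some calls were lost with them, such as those of EGR1 and CHAC1. The 3 libraries of 1 line per condition limit what the p-values cover.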

Other observations

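The share of genes lower in the combination differed with exon number and was highest in genes with 2 exons, while the share of higher genes was highest in those with 1 exon. Among the 15 largest falls outside the lists, 10 have at most 2 exons when the annotated transcripts of the gene are merged, among them PRMT6, MARS2, HPS6 and LCMT2 with 1 exon, against 2 of the 15 largest rises. Over 14859 genes tested with coordinates on the primary chromosomes, DEGs lower in the combination made up 13.8% of 868 genes with 1 exon, 18.7% of 685 with 2, 10.3% of 2957 with 3 to 5, 4.65% of 4192 with 6 to 10 and 2.01% of 6157 with over 10. DEGs higher in the combination made up 21.7%, 10.8%, 6.39%, 5.89% and 6.22% of the same classes. Among genes of at least 1 CPM in control or in the combination, the shares of lower DEGs were 15.2%, 17.0%, 9.98%, 4.13% and 1.79% and those of higher DEGs 19.4%, 11.1%, 6.26%, 5.5% and 5.79%. The median log2 fold change of genes with 1 exon was 0.14 in the combination, and 0.00 with EC359 alone and with trametinib alone. That of genes with 2 exons was -0.25 in the combination, -0.17 with EC359 alone and 0.00 with trametinib alone. The classes were looked at after the falls had been seen, exon number goes with gene length and level, and the part of these in the pattern was not tested.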
